A study of Mus musculus with 25 samples.

Results

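Peroxiredoxins, Gpx4, superoxide dismutases, thioredoxin 1 and Acsl4 were followed by name in RNA from neuronal nuclei of the mouse hippocampus. These genes were Gpx4, Prdx1, Prdx2, Prdx3, Prdx5, Prdx6, Sod1, Sod2, Txn1 and Acsl4, and all 10 were found among the 24411 genes of each of 3 tables, which together hold 25 libraries. Nuclei carrying the neuronal antigen NeuN were sorted from hippocampi of male C57BL/6 mice, which were wild type apart from the virus given in the later experiments. In the aging table, 3 libraries came from young mice of 3 months and 2 from aged mice of 18 months. The overexpression table holds libraries from young mice (3 months) whose hippocampus had received virus with the neuron-specific synapsin-1 promoter driving either GFP (5 control libraries) or Ftl1 (7 libraries labelled Ftl1 OE). The knockdown table holds libraries from aged mice (18 months) given virus with a short hairpin RNA against luciferase (4 control libraries) or against Ftl1 (4 libraries labelled Ftl1 KD), so that both of its groups were aged and injected into CA1 and the dentate gyrus. The virus reaches only some of the neurons that NeuN selects, and RNA of infected and uninfected nuclei was not separated.

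Ferroptosis is a form of cell death in which iron drives the peroxidation of membrane lipids. Ferritin, of which Ftl1 encodes the light chain, stores iron in a form that does not take part in this chemistry. Gpx4 encodes a selenium-containing peroxidase that reduces lipid hydroperoxides inside membranes with glutathione, whereas Acsl4 encodes the acyl-CoA synthetase that loads polyunsaturated fatty acids for insertion into membranes and so supplies the oxidizable substrate. Peroxiredoxins reduce hydrogen peroxide and organic peroxides through a reactive cysteine, thioredoxin 1 returns most of them to the reduced state, and superoxide dismutases (Sod1 in the cytosol, Sod2 in the mitochondrial matrix) make the hydrogen peroxide on which they act. Neurons have high oxygen use and membranes rich in polyunsaturated lipids.

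The reactive residue of each of these enzymes can be read from its coding sequence, which is shown here because the chemistry that groups the genes lies in these codons. The stretches were taken from GENCODE M21 transcripts (GRCm38, the build mm10), run 5′ to 3′ over 33 bases, and carry in capitals the in-frame TGA of Gpx4, read as selenocysteine, or the codon of the peroxidatic cysteine of a peroxiredoxin.
Gpx4: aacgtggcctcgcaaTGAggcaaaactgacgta
Prdx1: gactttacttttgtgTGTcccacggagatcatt
Prdx2: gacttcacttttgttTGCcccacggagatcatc
Prdx3: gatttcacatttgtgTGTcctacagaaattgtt
Prdx5: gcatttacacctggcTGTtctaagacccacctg
Prdx6: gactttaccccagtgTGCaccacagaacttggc
The codon in capitals is number 73 in Gpx4 and numbers 52, 51, 109, 96 and 47 in Prdx1, Prdx2, Prdx3, Prdx5 and Prdx6, counted from the start codon. Over their coding sequences, any pair of the 5 peroxiredoxins shared between 58.4% (Prdx1 and Prdx5) and 71.0% (Prdx1 and Prdx2) of aligned bases. Processed pseudogenes are closer. A copy of Gpx4 on chromosome 10 (Gpx4-ps2) matched 99.7% of 762 bases, and pseudogenes of Prdx1, Prdx2, Sod1 and Txn1 reached 98.3%, 96.3%, 97.8% and 95.8%. These copies are not listed in the tables, so reads that belong to them could be counted with the named gene. Prdx6 has a 90.1% copy, Prdx6b, which is listed. Sod2 shares a stretch of 200 to 210 bases, at an identity of 93.2% or less, with 11 other loci. Prdx2 (opposite Rnaseh2a and Junb), Prdx5 (opposite Trmt112) and Sod1 (opposite Scaf4) overlap a gene on the other strand, and the sources differ on whether the libraries keep strand, so these 3 values may hold reads of the neighbor.

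Promoters from RefSeq (GRCm38.p6, 300 bases around the start site) were matched for 9 of the 10 genes, all except Prdx6. The core of the antioxidant response element, the DNA element bound by Nrf2, was searched as TGACNNNGC on both strands. It was present in a promoter of Prdx1 and of Sod1, that is in 2 of 9 genes, and in 13.99% of all 27025 genes with a promoter. Both sites are shown with the core in capitals, on the strand of the gene.
Prdx1, chr4:116685456-116685485, plus strand: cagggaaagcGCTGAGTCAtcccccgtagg
Sod1, chr16:90220696-90220725, plus strand: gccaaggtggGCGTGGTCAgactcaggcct
The first base of the core lies at position -133 in Prdx1 and -56 in Sod1 relative to the start site. A GC box (GGGCGG on either strand) was found in 9 of 9 genes and in 38.2% of all genes. The promoters of these 9 genes had a GC content between 57% and 71.7%, where the median of all promoters was 52.7%. The part of GC content in this share was not tested. The letters of a TATA box (TATAAA on either strand) were found in 4 genes (Prdx1, Prdx3, Sod1 and Txn1) and in 15.7% of all genes. Their first base lay at -29 in Prdx1, -37 in Sod1, -160 in Txn1 and -239 in Prdx3, where they were on the other strand. A CCAAT box (CCAAT on either strand) was found in 3 genes (Gpx4, Sod1 and Sod2), a smaller share than the 41.06% of all genes.

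Depth ran from 7969282 to 9537872 reads per library in the aging table, from 9943996 to 17034325 in the overexpression table and from 48902 to 358560 in the knockdown table. In the knockdown table depth and ribosomal RNA differed between the groups. The median depth was 211020 reads in controls and 78359 in Ftl1 KD-labelled libraries, and Rn45s, a ribosomal RNA precursor, had 31.9%, 55.3%, 52.9% and 49.4% of reads in controls 1, 2, 3 and 5 against 30.3% to 34.5% in Ftl1 KD-labelled libraries. Rn45s also separated the aging groups, with 6.42% and 5.91% in aged replicates 2 and 3, above every young library. Young replicate 1 had 3.92%, replicate 2 a similar share and replicate 3 had 2.63%. Among overexpression libraries, control 5 had the highest share at 4.98%, and the next was 2.86% in Ftl1 OE replicate 7. The part of Rn45s in the aging and overexpression values was not tested. Overexpression controls 3 and 5 stood apart from the other controls, with 12281 and 13495 genes detected, where the other 3 controls had at least 13924 and Ftl1 OE-labelled libraries had between 13455 and 15602. Ftl1 RNA did not follow the labels in either virus experiment. Among overexpression libraries its median was 7415 normalized counts in controls (4580 to 28309) and 5171 in those labelled Ftl1 OE (4737.5 to 7663). These groups overlapped, and the log2 fold change of -0.67 (standard error 0.34) was -0.10 (standard error 0.21) without controls 3 and 5. Among knockdown libraries Ftl1 ran from 24.2 to 56.2 in controls and from 106 to 140 in those labelled Ftl1 KD, without overlap. Directions below are therefore directions between labelled libraries. By western blot of hippocampus, the study reported more FTL1 protein after the overexpression virus and less after the knockdown virus. The values here are RNA of sorted nuclei and not protein. Markers of neurons summed to between 37999 and 48346 normalized counts in young libraries, those of astrocytes to between 2021 and 3727, of oligodendrocytes to between 3194 and 7120 and of microglia to between 512 and 877, so that glial RNA was present beside neuronal RNA. In bulk RNA, fewer cells of a type and less RNA per cell cannot be told apart.

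Levels were compared between genes in the young wild-type libraries, as normalized count (reads divided by the size factor of the library) per kilobase of the principal transcript. Where principal transcripts ranked equally the longest was taken, so the order depends on these lengths. Prdx1 and Prdx5, for example, had mean normalized counts of 507 and 508 on transcripts of 2294 and 1262 bases. Sod1 was the highest at 2413 ± 518 per kilobase (SD, n = 3). Gpx4 followed at 843 ± 127, Prdx2 at 721 ± 121, Prdx5 at 403 ± 130, Prdx6 at 293 ± 26.6, Prdx1 at 221 ± 31.6, Txn1 at 159 ± 25.6, Prdx3 at 146 ± 59.4, Sod2 at 92.1 ± 15.4 and Acsl4 at 84.7 ± 15.9 per kilobase. Gpx4 and Prdx2 overlapped between libraries, as did Prdx5 and Prdx6, Txn1 and Prdx3, and Sod2 and Acsl4. The other neighbors in this order did not overlap, although the gap was small between Prdx1 (lowest library 189) and Txn1 (highest library 187) and between Prdx3 (103) and Sod2 (102).

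The comparison of young and aged libraries asked how these transcripts differ with age in hippocampal neurons. Gpx4 was higher, and Acsl4 lower, in both aged libraries than in any young library, but neither difference passed the threshold. Fold changes are from limma on log2(normalized count + 1), tested where the mean count reached 10, which left 13712 genes over which p was adjusted by Benjamini-Hochberg. A gene was called where the adjusted p did not exceed 0.05, the only limit in the overexpression and knockdown comparisons. With age the log2 fold change also had to be 0.5 or larger in size. On that rule 0 of the 10 genes were called, beside 0.0% of all genes tested, and edgeR and DESeq2 also called 0. Before adjustment, 0 of 10 reached the 0.05 limit in limma, beside 2.9% of all genes tested that were higher and 5.04% that were lower at that limit. The median log2 fold change of the 10 genes was 0.20, beside -0.03 for all genes tested, with 7 genes above 0 (48.3% of all genes tested) and 3 below (51.7%). Leaving out aged replicate 3 brought the median of the 10 genes to 0.041, and leaving out young replicate 1 to 0.045.

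Gpx4 had 715, 946 and 764 normalized counts in young mice against 1356 and 1081 in aged mice. Both aged libraries exceeded all 3 young ones, and the log2 fold change was 0.59 (standard error 0.29, adjusted p = 0.642; p = 0.10 by exact permutation, two-sided, as low as 3 against 2 can reach). Acsl4 had 414, 385 and 542 normalized counts in young and 219 and 375 in aged libraries. Here both aged libraries lay below every young one, by -0.62 on the log2 scale (standard error 0.38, adjusted p = 0.689; exact p = 0.10). Txn1 was 143, 196 and 162 in young and 203 and 218 in aged libraries, again without overlap, but with a difference of only 0.34 on the log2 scale (standard error 0.44, adjusted p = 0.859). Groups without overlap were frequent in this design. Aged libraries lay above all young ones for 2 of the 10 genes and 12.2% of all genes tested, and below for 1 of 10 and 12.5%.

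The peroxiredoxins had no common direction with age. Prdx3, the mitochondrial enzyme, differed by 0.75 on the log2 scale, but with 316, 179 and 153 normalized counts in young and 228 and 522 in aged libraries the groups overlapped (standard error 0.49, adjusted p = 0.707), and the value was 0.15 without aged replicate 3 and 1.34 without aged replicate 2. Prdx1 was 578, 433 and 510 in young and 314 and 462 in aged libraries, a log2 fold change of -0.40 (standard error 0.34). Prdx6, which reduces phospholipid hydroperoxides and also has phospholipase activity, was 625, 730 and 739 in young and 431 and 693 in aged libraries, a log2 fold change of -0.35 (standard error 0.32). Prdx5 and Prdx2 differed by 0.34 and 0.13. Sod1 and Sod2 differed by 0.22 (standard error 0.30) and 0.18 (standard error 0.33). For Prdx2, Sod1 and Sod2, 1 aged library decided the sign. Without aged replicate 3 the value of Prdx2 was -0.25 and that of Sod2 -0.070, and without aged replicate 2 that of Sod1 was -0.029.

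**Figure D1:**
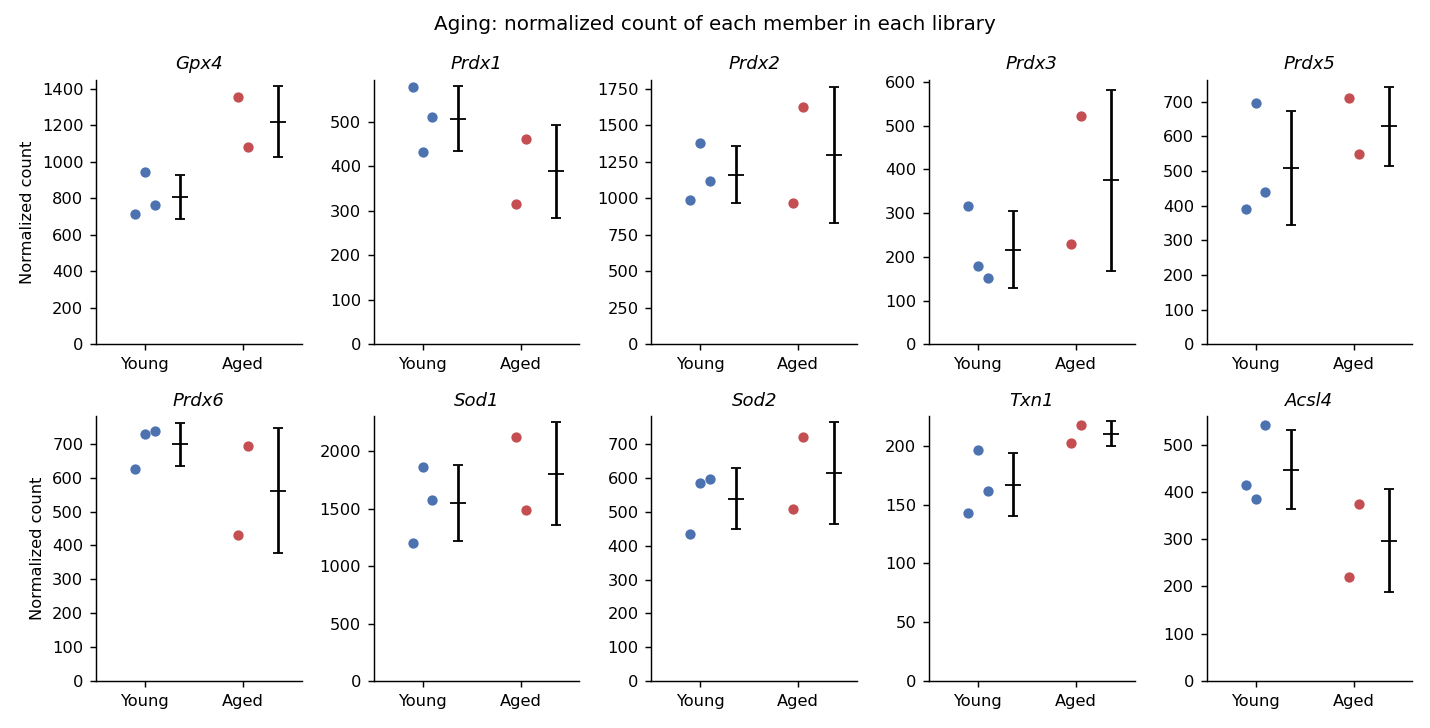
Normalized counts (y axes, reads divided by the size factor of the library, each from 0) of the 10 genes in 3 young (blue) and 2 aged (red) libraries, 1 point per library, with the group mean and SD beside the points. Gpx4 and Txn1 lay higher and Acsl4 lower in both aged libraries than in all 3 young ones, and the other 7 genes overlapped.

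Among other genes of these systems, 5 lists were read from the same fit, and 0 genes of any list were called with age by limma, edgeR or DESeq2. Of other genes of the thioredoxin, peroxiredoxin and superoxide systems, 23 of 24 were tested and 1 was lower at the unadjusted 0.05 limit. This was Cat, the gene of catalase, with 217 ± 82.0 (SD, n = 3) normalized counts in young and 90.5 ± 57.9 (SD, n = 2) in aged mice (log2 fold change -1.33, adjusted p = 0.614). Of the genes of glutathione synthesis and use, 2 of 24 tested were lower at that limit. Slc7a11, which imports cystine for glutathione synthesis, was listed at 0 in both aged libraries and between 12.7 and 44.4 in young ones (12 to 50 reads, adjusted p = 0.612). Its young mean of 23.9 was 16.7-fold the 1.43 normalized counts that 3 reads over the aged group would give, a figure that leaves out the spread between young libraries. Mgst3, a microsomal glutathione transferase, was the nearest to the limit among those with higher values (log2 fold change 0.72, adjusted p = 0.642). Of the genes of the lipid side of ferroptosis, Fads1, a desaturase of polyunsaturated fatty acids, was 944 ± 107 in young and 1588 ± 592 in aged libraries (log2 fold change 0.70, adjusted p = 0.614), and Pla2g6, a phospholipase, was 246 ± 6.80 and 135 ± 26.7 (log2 fold change -0.88, adjusted p = 0.643).

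The list of selenoprotein synthesis, on which Gpx4 depends, also holds selenoproteins themselves, and 1 of its 17 genes was lower at the same limit. This was Sepn1, a selenoprotein and not a synthesis gene (log2 fold change -1.39, adjusted p = 0.612). Sepw1, a selenoprotein abundant in brain, differed by 0.60 (adjusted p = 0.650). In the list of NADPH supply and the Nrf2 axis, 14 of 18 genes had values below 0, with a median log2 fold change of -0.23 beside -0.03 for all genes tested, and 2 were lower at that limit. G6pdx, which encodes the first enzyme of the pentose phosphate pathway, was 161 ± 46.0 in young and 54.3 ± 36.2 in aged libraries (log2 fold change -1.69, adjusted p = 0.556). Mafg, a small Maf partner of Nrf2, had the opposite sign (log2 fold change 1.21, adjusted p = 0.534). The medians of the other 4 lists lay between -0.08 and 0.10.

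Fth1 and Ftl1, which encode ferritin subunits, were 4007 ± 1359 and 1917 ± 228 (SD, n = 3) normalized counts in young libraries and 6241 ± 512 and 4259 ± 17.7 (SD, n = 2) with age. The log2 fold changes were 0.70 (adjusted p = 0.639 in limma) and 1.16 (adjusted p = 0.397 in limma). DESeq2 called Ftl1 (adjusted p = 1.7e-04) but not Fth1 (adjusted p = 0.485). Neither was called by edgeR (adjusted p = 0.511 for Ftl1 and 0.709 for Fth1). The study also reported Ftl1 as higher with age, by DESeq2 and by quantitative PCR. Ribosomal protein genes, which share short transcripts with several of the genes followed here, were also higher in aged libraries, 75 of 82 tested, with a median log2 fold change of 0.60 and a summed level between 33638 and 35175 in aged and between 20731 and 28239 in young libraries. Their part in the values of Gpx4 and Txn1 was not tested. Astrocyte markers were lower in aged libraries for 8 of 10 genes (summed level 1879 and 2210 against 2021 to 3727), and oligodendrocyte markers for 9 of 10 (3285 and 4534 against 3194 to 7120). No marker of either list was at 0 in a whole group, and their part in the values of Prdx1, Prdx6 and Acsl4 was not tested.

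In the overexpression experiment, which asked what raised neuronal Ftl1 does in young mice, all 10 genes had lower mean log2 values in Ftl1 OE-labelled libraries than in controls, and none was called. Sod1, Prdx5 and Gpx4 had the smallest p-values, with differences of -0.60, -0.78 and -0.73 on the log2 scale. By limma over 14099 genes, 0 of 10 were called (0.0% of all genes tested), with 0 also by edgeR and DESeq2, and 3 of 10 were lower at the unadjusted 0.05 limit, where 3.66% of all genes tested were lower and 3.6% higher. The groups did not overlap for 0 of 10 genes, beside 0.411% of all genes tested with lower and 0.17% with higher values under that label. Among all genes tested 42.6% had values below 0 and 57.4% above 0, and their median was 0.10, whereas the median of the 10 genes was -0.40. Centring each library on its median moved all genes by 0.10 and left all 10 below 0, with a median of -0.49.

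Gpx4 had 5710, 3351, 10242, 5681 and 10259 normalized counts in controls 1 to 5. The 7 libraries labelled Ftl1 OE ran from 3105 to 5734 with a median of 3472. Controls 3 and 5 were above all other libraries, and controls 1, 2 and 4 fell within the range of Ftl1 OE-labelled libraries. The log2 fold change of -0.73 (standard error 0.27, unadjusted p = 0.0163, adjusted p = 0.592; exact two-sided permutation test, p = 0.0290) was -0.29 (standard error 0.24, adjusted p = 0.853) without controls 3 and 5. Prdx5, a peroxiredoxin of mitochondria, peroxisomes and cytosol, had 3488, 2060, 6844, 3820 and 5745 normalized counts in controls and between 1653 and 3518 in Ftl1 OE-labelled libraries, with a median of 2311. Controls 3, 4 and 5 lay above every library labelled Ftl1 OE, and controls 1 and 2 within their range. The log2 fold change was -0.78 (standard error 0.28, unadjusted p = 0.0134, adjusted p = 0.574; exact p = 0.0341) and -0.36 (standard error 0.26) without controls 3 and 5.

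Sod1 had 1777, 1280, 2565, 2040 and 2556 normalized counts in controls and between 968 and 1635 in Ftl1 OE-labelled libraries, with a median of 1233. All controls but replicate 2 lay above every library labelled Ftl1 OE. The log2 fold change was -0.60 (standard error 0.21, unadjusted p = 0.0123, adjusted p = 0.557; exact p = 0.0189) and -0.36 (standard error 0.21, unadjusted p = 0.118) without controls 3 and 5. Prdx2, a cytosolic peroxiredoxin, had 5234, 3302, 10796, 5845 and 10183 normalized counts in controls and a median of 4185 in Ftl1 OE-labelled libraries (range 3570 to 6439). Its log2 fold change of -0.47 (standard error 0.27) was -4.2e-04 (standard error 0.23) once controls 3 and 5 were left out.

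Sod2 moved the other way when these 2 controls were left out. It had 1784, 2032, 1331, 1825 and 1924 normalized counts in controls and between 659 and 1821 in Ftl1 OE-labelled libraries, with a median of 1331. Control 3 was the lowest control here, and the log2 fold change of -0.39 (standard error 0.24) became -0.48 (standard error 0.26, unadjusted p = 0.0897) without controls 3 and 5. Txn1 differed by -0.41 (standard error 0.23), with 1153, 749, 1809, 970 and 971 in controls, of which controls 1 and 3 were above the range of Ftl1 OE-labelled libraries (615 to 1035), and by -0.21 (standard error 0.21) without controls 3 and 5. Acsl4 differed by -0.37 (standard error 0.30), Prdx6 by -0.22 (standard error 0.26), Prdx1 by -0.20 (standard error 0.21) and Prdx3 by -0.14 (standard error 0.23), and in all 4 the groups overlapped widely. Without controls 3 and 5, 10 of 10 genes were still below 0, 0 of 10 reached the unadjusted 0.05 limit, and the median was -0.28 beside -0.05 for all genes tested, of which 54.3% were then below 0.

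**Figure D2:**
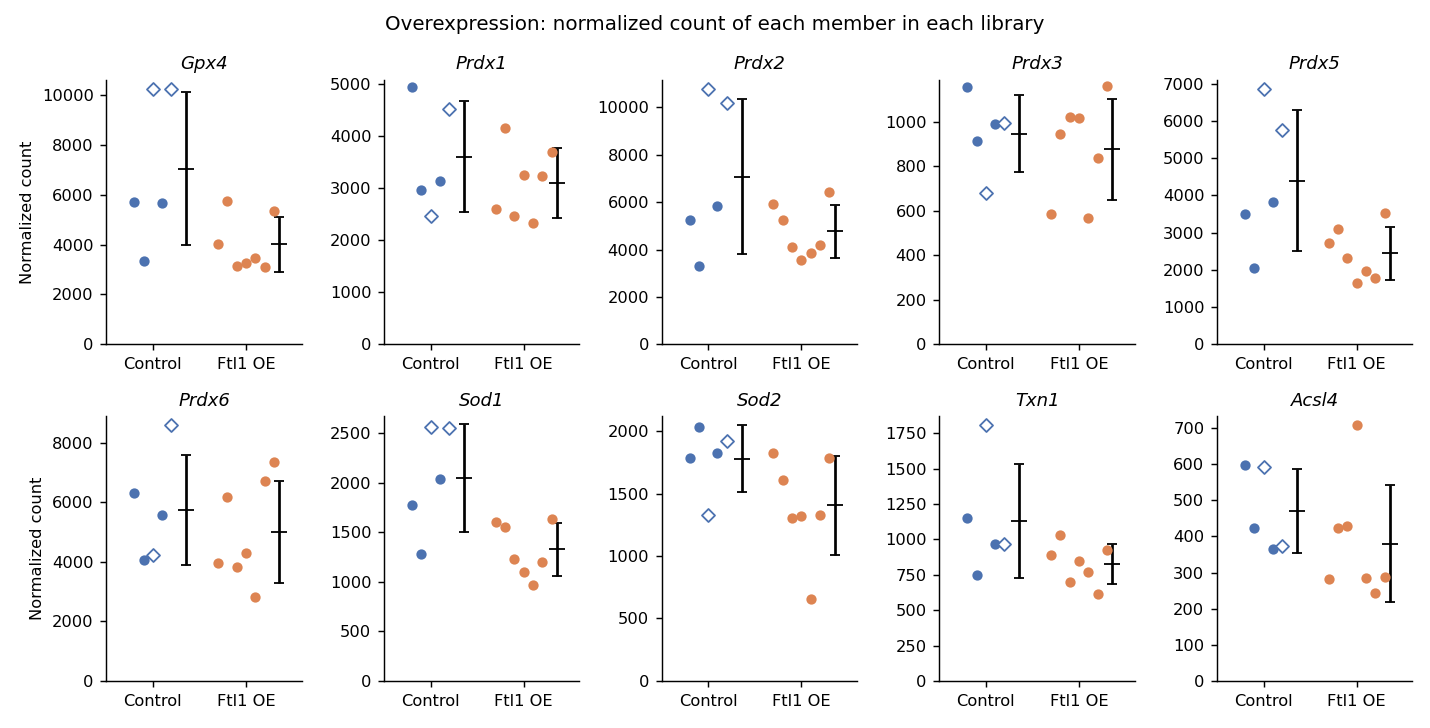
Normalized counts (y axes, each from 0) of the 10 genes in 5 control libraries (blue; open diamonds are replicates 3 and 5) and 7 libraries labelled Ftl1 OE (orange), 1 point per library, with the group mean and SD beside the points. The open diamonds lie above all other libraries for Gpx4, Prdx2, Prdx5 and Sod1 and within them for Prdx1, Prdx3, Sod2 and Acsl4.

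Controls 3 and 5 held 2.74 and 2.74 times the median of the other 10 libraries for Gpx4, 2.72 and 2.28 times for Prdx5, 2.29 and 2.16 times for Prdx2, and 1.81 and 1.81 times for Sod1. For Prdx3 the ratios were 0.70 and 1.03, for Sod2 0.78 and 1.13 and for Prdx1 0.77 and 1.42. Txn1 (2.08 and 1.12) lay above the other 10 libraries in control 3 alone and Prdx6 (0.86 and 1.74) in control 5 alone, and Acsl4 (1.5 and 0.95) in neither. The 4 genes above all other libraries in both controls were the 4 whose longest coding transcript had a GC content of at least 50%, Gpx4 at 60.2%, Prdx5 at 58.3%, Sod1 at 53.2% and Prdx2 at 50.4%. The other 6 lay between 39.0% (Acsl4) and 47.7% (Prdx6). Among 13075 genes tested that could be matched to a coding transcript (92.7%), both controls exceeded all other libraries for 22.7% of genes with a GC content of at least 50% and for 3.80% of the rest. The part of GC content in the values of these genes was not tested.

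**Figure D3:**
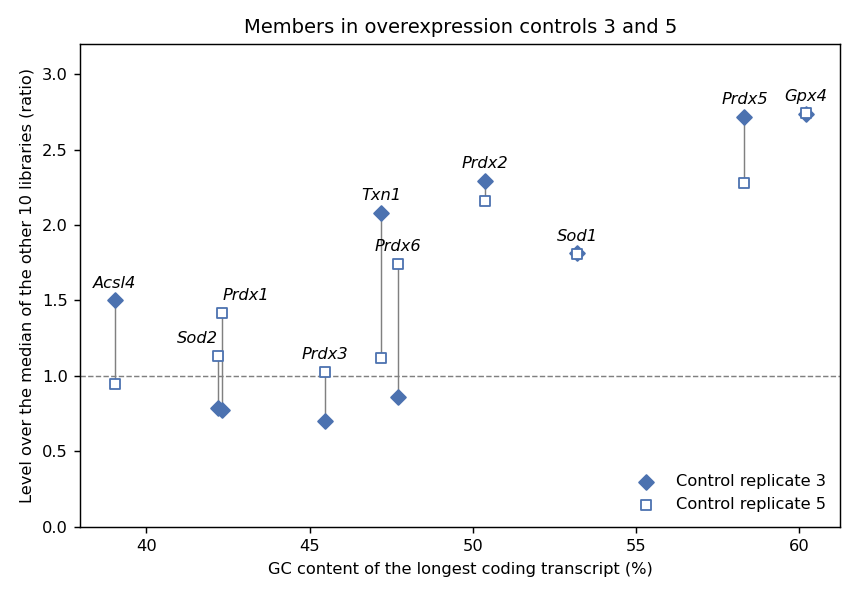
Level in control replicate 3 (filled diamonds) and control replicate 5 (open squares) over the median of the other 10 overexpression libraries (y axis, ratio from 0, dashed line at 1) against the GC content of the longest coding transcript (x axis, percent), 1 pair per gene. Both ratios are at least 1.81 for the 4 genes at 50.4% or more, and at least 1 of the 2 is under 1.42 for each of the other 6.

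Over the 12 overexpression libraries, which differ in depth and in the number of genes detected, Gpx4, Prdx2, Prdx5 and Sod1 varied together, with Pearson's r of log2 values between 0.92 and 0.97 for their 6 pairs and between 0.80 and 0.93 over the 10 libraries without controls 3 and 5. Txn1 varied with them too, with r = 0.82 for Gpx4 and for Prdx5, 0.76 for Sod1 and 0.75 for Prdx2 (0.89, 0.77, 0.71 and 0.62 without controls 3 and 5). The r of the 4 genes with Prdx1, Prdx3 and Prdx6 ran from -0.05 to 0.53 over 12 libraries and from 0.15 to 0.69 over 10, so that the gap to the first range was smaller without these controls. Prdx1 had r = 0.84 with Prdx6 and 0.70 with Prdx3 (0.80 and 0.68 over 10 libraries), and over 10 libraries also 0.69 with Gpx4 and 0.68 with Txn1. Acsl4 reached at most 0.53 with any of the others (0.55 over 10 libraries). Among all genes tested, those most like Gpx4 were Atp6v1f (r = 0.99), Chchd2 (0.98) and Atp5c1 (0.98), and those most like Prdx2 were Vps28, Tm2d3 and Ndufb8 (each 0.99). The genes most like Prdx6 were Glul (r = 0.98), Cst3 (0.97) and Apoe (0.97). Acsl4 had no match as close, its nearest genes being Ptpn21 (r = 0.87), Fbxl20 (0.87) and Gulp1 (0.79). Without controls 3 and 5 these 12 values ran from 0.81 (Gulp1) to 0.98 (Ndufb8 and Glul).

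In the 5 other lists, 0 genes were called by limma or edgeR in Ftl1 OE-labelled libraries, and DESeq2 called 1, Gpx1. Gpx1, the cytosolic glutathione peroxidase that reduces hydrogen peroxide, had 2352 ± 993 (SD, n = 5) normalized counts in controls and 1133 ± 327 (SD, n = 7) under Ftl1 OE labels (log2 fold change -0.997, adjusted p = 0.499 in limma). At the unadjusted 0.05 limit, 2 genes of glutathione synthesis and use were higher and 3 lower among 25. Gpx8, a peroxidase of the endoplasmic reticulum, had the smallest p of the higher ones (log2 fold change 2.76, standard error 1.21). Its counts were low and spread widely, at 59.0 ± 78.0 in controls and 100 ± 44.6 under Ftl1 OE labels. In the thioredoxin, peroxiredoxin and superoxide systems 2 of 24 were lower, among them Glrx5, a mitochondrial glutaredoxin of iron-sulfur cluster assembly (2087 ± 915 and 1253 ± 284, log2 fold change -0.65). Msrb3 had the highest log2 fold change of that list (2.07, standard error 1.18, adjusted p = 0.706), at 27.4 ± 25.7 and 86.1 ± 99.0 normalized counts.

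On the lipid side of ferroptosis Elovl5, an elongase of polyunsaturated fatty acids, differed by 0.73 (adjusted p = 0.672) and Pebp1, which can direct lipoxygenases to membrane lipids, by -0.59 (15591 ± 5985 and 10015 ± 2578, adjusted p = 0.650). Sepw1 differed by -0.82 (7316 ± 3317 and 3966 ± 1103, adjusted p = 0.546). Sepsecs, which makes the selenocysteine tRNA, differed by 1.61 (standard error 1.25), although its mean counts were close (41.4 ± 45.4 and 46.6 ± 28.8). In the list of NADPH supply and the Nrf2 axis Nnt, the mitochondrial transhydrogenase, differed by 1.36 (adjusted p = 0.672) and Taldo1, an enzyme of the pentose phosphate pathway, by -0.55 (adjusted p = 0.633). The medians of the 5 lists lay between -0.12 and 0.27, beside 0.10 for all genes tested.

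Ribosomal protein genes were lower in Ftl1 OE-labelled libraries for 78 of 81 tested, with a median log2 fold change of -0.71 (-0.36 without controls 3 and 5) and a summed level between 101980 and 299570 in controls and between 86621 and 127850 in Ftl1 OE-labelled libraries. Fth1 differed by -0.41 (standard error 0.26) and by -0.08 without controls 3 and 5. Microglial markers were lower for 7 of 10 genes, 5 of them at the unadjusted 0.05 limit, with a summed level of 3017 to 7164 in controls and 1679 to 3204 in Ftl1 OE-labelled libraries. Astrocyte markers summed to between 6137 and 23809 in controls and between 7390 and 36385 in Ftl1 OE-labelled libraries, with 7 of 10 higher and a median log2 fold change of 0.44, which turned to -0.16 without controls 3 and 5. The microglial median was -1.08, and -0.92 without them. No marker of either list was at 0 in a whole group. The part of these lists in the values of the 10 genes was not tested.

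The knockdown experiment asked what lowering hippocampal Ftl1 does in aged mice. Prdx6 was higher in Ftl1 KD-labelled libraries and passed the threshold, by 1.14 on the log2 scale (standard error 0.34, adjusted p = 0.0149 in limma). Prdx1 also passed, by 1.35 (standard error 0.40, adjusted p = 0.0154), but its control mean of 9.30 was below the limit of 10, so that it entered the test only through the group in which it was high. With no filter on low counts Prdx1 had an adjusted p of 0.0317 and Prdx6 of 0.0680. In both cases the libraries compared also differed in depth and in the share of Rn45s, whose part in these values was not tested. Of the 10 genes, 7 reached a mean of 10 and were tested. These 2 of 7 stand beside 24.2% of all 1460 genes tested that were called, 10.5% higher and 13.7% lower. Of the 7, 6 had values above 0 and 1 below, beside 49.5% and 50.5% of all genes tested. Txn1, with a control mean of 7.58, was tested through its higher group like Prdx1, so these counts are a description of the genes tested and not of all 10. Prdx3, Prdx5 and Acsl4 had means of 7.26, 9.88 and 2.42 over all 8 libraries and were not tested.

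Prdx1 had 3.78, 9.28, 18.7 and 5.43 normalized counts in control replicates 1, 2, 3 and 5, from 4, 23, 10 and 13 reads. It had 18.2, 29.8, 18.2 and 22.04 in libraries 1, 3, 4 and 5 labelled Ftl1 KD, from 19, 33, 10 and 15 reads. Control 3 lay above 2 of Ftl1 KD-labelled libraries, and exact permutation, two-sided, gave p = 0.0857. The call was lost without control replicate 1 (adjusted p = 0.0570) and without Ftl1 KD replicate 3 (adjusted p = 0.0772). Prdx6 had 9.44, 11.3, 14.98 and 7.11 normalized counts in controls, from 8 to 28 reads, and 23.0, 19.8, 20.04 and 36.7 in Ftl1 KD-labelled libraries, from 11 to 25 reads. The groups did not overlap (p = 0.029 by exact permutation, two-sided, which is as low as 4 against 4 can reach). The call was lost without control replicate 5 (adjusted p = 0.0539), without Ftl1 KD replicate 5 (adjusted p = 0.0855) and with no filter on low counts (adjusted p = 0.0680). It was also lost with the replicate number as a block. The adjusted p ran from 0.00625 to 0.0855 over all alternatives.

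Prdx2 and Sod1 also separated the groups but were not called. Prdx2 had 22.7, 28.2, 33.7 and 22.2 normalized counts in controls and 42.2, 39.7, 34.6 and 42.6 in Ftl1 KD-labelled libraries. Its log2 fold change was 0.57 (standard error 0.26, adjusted p = 0.108; exact p = 0.029), and it passed the threshold only without control replicate 3 (adjusted p = 0.0443). Sod1 had 16.99, 20.2, 18.7 and 18.8 in controls and 21.1, 28.9, 25.5 and 22.04 in Ftl1 KD-labelled libraries, which is 0.36 on the log2 scale (standard error 0.29, adjusted p = 0.384; exact p = 0.029). Ftl1 KD-labelled libraries lay above all controls for 3 of the 7 genes and 11.8% of all genes tested, and below them for 0 of 7 and 11.9%. Txn1 had 7.55, 10.9, 9.36 and 2.51 in controls and 9.59, 12.6, 27.3 and 14.7 in Ftl1 KD-labelled libraries, which is 1.03 on the log2 scale (standard error 0.47, adjusted p = 0.107). Before adjustment 4 of 7 genes were higher at the 0.05 limit (Prdx1, Prdx2, Prdx6 and Txn1) and 0 lower, beside 17.5% and 20.7% of all genes tested. Prdx1 and Txn1 are in this count through the filter described above, so nothing is read from it against the background.

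Gpx4 was the only tested gene of the 7 with a value below 0, at 14.2, 19.8, 18.7 and 26.8 normalized counts in controls and 18.2, 19.8, 9.11 and 20.6 in Ftl1 KD-labelled libraries. The groups overlapped, the log2 fold change was -0.25 with a 95% interval from -0.93 to 0.44, and without Ftl1 KD replicate 4, which held 5 Gpx4 reads, it was 0.010. Sod2 differed by 0.14 with an interval from -0.63 to 0.91, and by -0.035 without control replicate 1. The 3 untested genes rested on 22 reads or fewer in any library. Prdx3 had 1.89, 2.42, 3.75 and 9.20 normalized counts in controls and 10.5, 5.41, 14.6 and 10.3 in Ftl1 KD-labelled libraries (exact two-sided permutation test, p = 0.0571). Prdx5 was 9.14 ± 1.42 (SD, n = 4) and 10.6 ± 8.0 (SD, n = 4), and Acsl4, with 0 to 4 reads in a library, was 1.51 ± 1.70 and 3.33 ± 2.88. A difference in Acsl4 was not detectable at this depth.

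**Figure D4:**
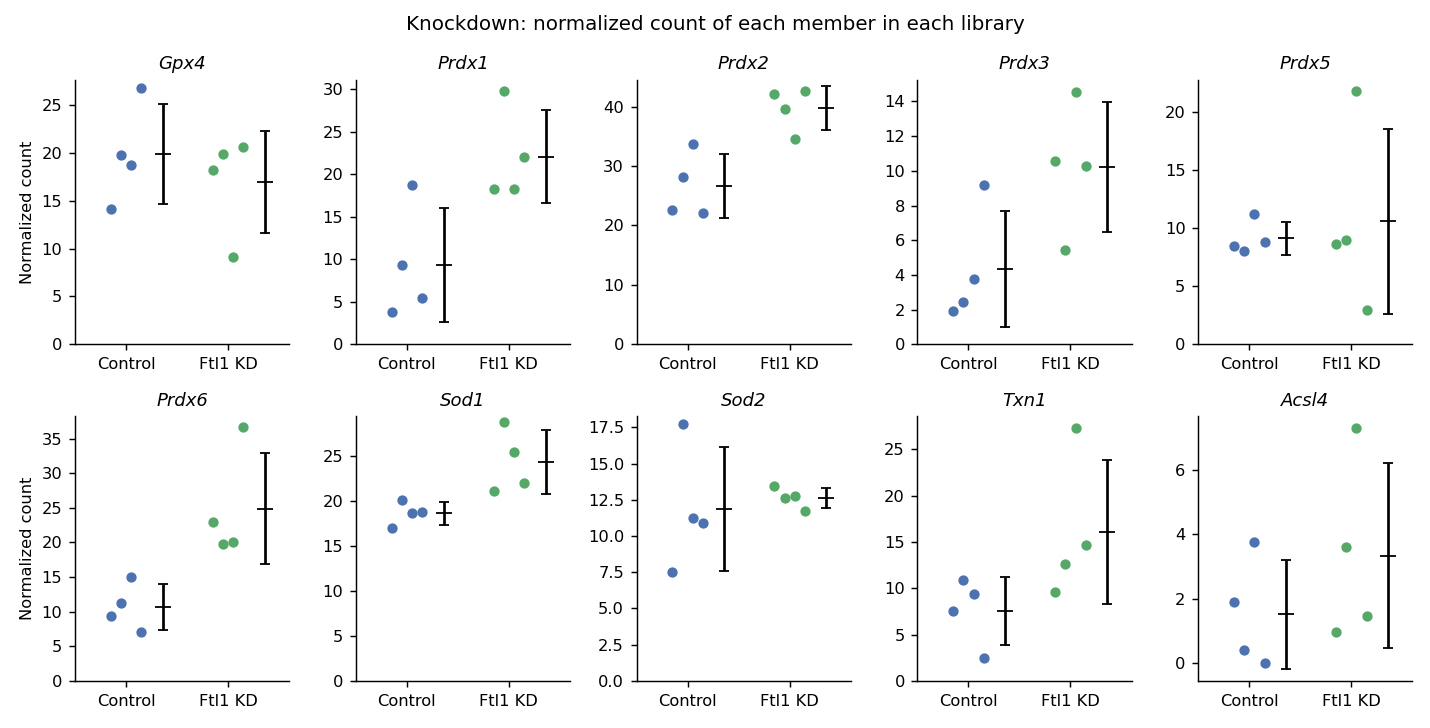
Normalized counts (y axes) of the 10 genes in 4 control libraries (blue) and 4 libraries labelled Ftl1 KD (green), 1 point per library, with the group mean and SD beside the points. Prdx2, Prdx6 and Sod1 lie higher in all 4 libraries labelled Ftl1 KD than in all 4 controls, and Gpx4 overlaps.

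Few other genes of these systems were deep enough to test. Of 25 genes of glutathione synthesis and use, 6 were tested and 1 was called. This was Gstm1, a cytosolic glutathione transferase, which rose from 11.3 ± 3.91 (SD, n = 4) to 33.6 ± 5.04 (SD, n = 4) normalized counts (log2 fold change 1.54, standard error 0.32, adjusted p = 0.00122 in limma). Of 19 genes of NADPH supply and the Nrf2 axis, 2 were tested and 1 was called, Idh1, the cytosolic NADP-dependent isocitrate dehydrogenase, which rose from 4.13 ± 1.76 to 17.5 ± 1.40 (log2 fold change 1.91, standard error 0.50, adjusted p = 0.00719). Its control mean was also below the limit of 10. No gene of the other 3 lists was called by limma, edgeR or DESeq2, with 1, 4 and 1 genes tested. Of these, Park7, a redox-sensitive protein, differed by 0.69 (adjusted p = 0.157), Scd2, a desaturase, by 0.54 (adjusted p = 0.209), Por, an electron donor that can promote lipid peroxidation, by -0.90 (adjusted p = 0.0552) and Sepw1 by 0.32 (adjusted p = 0.395). Ggt7, of the glutathione list, differed by -0.90 (adjusted p = 0.0541).

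Other RNA differed between these groups as well. The 4 nuclear-retained RNAs tested (Malat1, Meg3, Snhg11 and Miat) were all lower in Ftl1 KD-labelled libraries, with a median log2 fold change of -1.83 and a summed level of the list between 619 and 1235 in controls and between 219 and 322 in Ftl1 KD-labelled libraries. Ribosomal protein genes were higher for 41 of 45 tested, with a median of 0.46 and 4 called, and Fth1 differed by 0.40 (adjusted p = 0.161). The astrocyte marker Slc1a3, the only one of 10 with a mean of at least 10 over both groups, rose from 5.56 ± 2.64 (SD, n = 4) to 25.3 ± 6.39 (SD, n = 4) normalized counts (adjusted p = 5.41e-04 in limma). Its control mean was below that limit, so that it entered the test only through the group in which it was high. The whole astrocyte list summed to between 28.1 and 47.2 in controls and between 49.6 and 69.1 in Ftl1 KD-labelled libraries. Gjb6 of that list was at 0 in both groups and S100b in Ftl1 KD-labelled libraries. Of 10 neuronal markers 5 were tested, and limma called 1 higher and 1 lower. Syt1, Snap25 and Camk2a differed by -0.37, 0.31 and -0.43 and were not called. Gad2, of inhibitory neurons, was not tested. Gad1, of inhibitory neurons, rose from 13.04 ± 6.89 to 34.2 ± 5.80 normalized counts (adjusted p = 0.00380 in limma), and Slc17a7, of excitatory neurons, fell from 26.8 ± 7.40 to 12.7 ± 8.18 (adjusted p = 0.0327), although edgeR and DESeq2 called only Gad1 of the list. Oligodendrocyte markers were lower (39.7 to 97.2 in controls, 10.9 to 24.4 in Ftl1 KD-labelled libraries). The part of these RNAs in the values of Prdx1, Prdx6, Gstm1 and Idh1 was not tested.

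**Figure D5:**
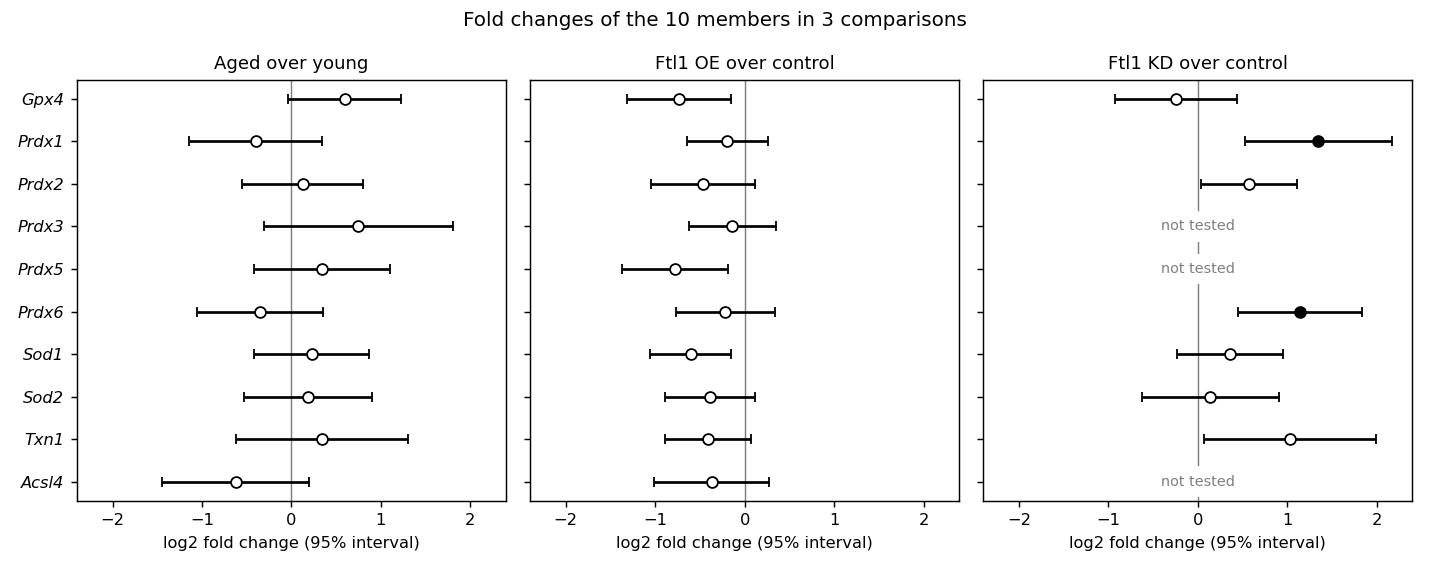
Log2 fold changes (x axes) with 95% intervals from limma for the 10 genes (y axis) in aged over young, Ftl1 OE over control and Ftl1 KD over control libraries, filled where called. Intervals in the aging panel all include 0, those of Gpx4, Prdx5 and Sod1 in the overexpression panel lie below 0, and Prdx1 and Prdx6 in the knockdown panel are filled.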

How the data were processed

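RNA of sorted hippocampal neuronal nuclei was measured in 25 libraries. Per the labels and the study's methods, the authors used STAR for alignment (mm10 transcriptome) and RSEM for counting, and normalized each of the 3 tables separately with DESeq2 (versions differ between sources and are not given here), so values of different tables were not compared. The deposited signal of each library is its read count per gene divided by a size factor. Multiplied by the size factor, 100% of values came out as whole reads (tolerance 0.001). The sources differ on whether libraries kept strand. The deposited tables also hold the authors' mean, log2 fold change, its error, a p-value with its adjusted form and a test statistic (score) of their own comparisons, none of which was used.

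Genes with a mean normalized count of 10 or more were tested with limma 3.58.1 (trend) in R 4.3.3 on log2(normalized count + 1), with Benjamini-Hochberg adjustment over all genes of a table. edgeR 4.0.16 and DESeq2 1.42.0 were run on the recovered reads. Single genes were also compared by exact two-sided permutation over libraries, which cannot go below p = 0.10 for 3 against 2. In tests on simulated counts with 200 genes changed by 4-fold, limma recovered 47% of them for aging, 52% for overexpression and 85.5% for knockdown. Groups followed the labels, and overexpression replicates were numbered in order of listing. Where the sources do not tie each library to its own animal, p-values cover only the spread between these libraries, which may be technical. Sequences came from GENCODE M21 and RefSeq, and copies were searched with BLAST 2.17.0 at an identity of at least 90% over 200 bases. Of the listed symbols, 8 were matched through synonyms.

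The 10 genes and all lists were chosen with earlier results of these data known. All 10 genes are named in every table, with Ftl1 and Fth1. Of the 5 lists, genes past the threshold are named (up to 4 in each direction), otherwise the gene with the smallest p in each direction. For Gpx4, Prdx2, Prdx6 and Acsl4, the 3 genes with the highest correlation are named. Alternatives were other tools, filters, pseudocounts and centring, a replicate block, and leaving out each library.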

Additional observations from a re-analysis of the deposited data

Results flagged for a closer look

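Acsl4 had 708 normalized counts in Ftl1 OE replicate 4, far above the other 6 libraries of that group, of which the next was at 430. The gap was 0.599 of the range of the 7 libraries. This was the only such value among 40 groups of values of these genes that were examined, of which chance flags about 1 in 20.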

How the results depend on the processing

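DESeq2 called 138 genes with age and 101 in the overexpression comparison, where limma called 0, and 1 of the 10 genes had an unadjusted p of 0.05 or less with age. On simulated counts its share of false calls was 27.5% and 29% in these designs. Leaving out 1 library at a time, 0 to 3 of the 10 genes reached an unadjusted p of 0.05 with age (3 without aged replicate 3) and 2 to 5 in the overexpression comparison (5 without control replicate 2), where 0 to 1 genes of all were called (1 without control replicate 4). With controls 3 and 5 both left out, an alternative chosen after seeing the data, the count was 0. With age the median of the 10 genes ran from 0.041 to 0.31, and was 0.045 with the replicate number as a block. The log2 fold change ran from 0.15 to 1.34 for Prdx3, from -1.01 to -0.24 for Acsl4, from -0.25 to 0.50 for Prdx2, from -0.029 to 0.48 for Sod1 and from -0.070 to 0.43 for Sod2. In the knockdown comparison 354 genes were called, with 18 at a minimum mean of 100, which left none of the 10 genes, and 235 to 439 with 1 library left out. Of the 10 genes, 1 was called with no filter and 1 to 3 with 1 library left out, and 2 to 4 reached an unadjusted p of 0.05. The log2 fold change ran from -0.39 to 0.010 for Gpx4 and from -0.035 to 0.34 for Sod2. Same-numbered libraries did not deviate together (r from -0.05 to 0.02). Deviations were taken from the means of very small groups, so this check cannot exclude that the numbers pair them. With the replicate number as a block, 173 genes and 1 of the 10 were called, Prdx1, while Prdx6 lost its call (adjusted p = 0.0576 in limma), 2 reached an unadjusted p of 0.05, and Gpx4 was at 0.019. The cause of these changes was not tested. Of the other values of single genes, 458 kept their direction and their side of the threshold. The knockdown depth limits that comparison to 7 of the 10 genes.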
